A study of Mus musculus with 18 samples.

Results

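The genes described here carry glucose into the heart muscle cell, commit it to glycolysis, or store and release it as glycogen. They comprise the transporters Slc2a1 and Slc2a4, the hexokinases Hk1 and Hk2, the phosphofructokinase Pfkm, its bifunctional regulators Pfkfb1 and Pfkfb2, the glycogen synthase Gys1, the glycogen-binding protein Stbd1 and the muscle glycogen phosphorylase Pygm. The 10 genes were listed by name, and each was read from the microarray probe sets annotated to that symbol alone. Such probe sets were found for 9 of the 10 genes, 17 probe sets in all, among 18193 genes and 45037 probe sets tested in the whole series. Pfkfb1 had none and is not analysed here.

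Left ventricles came from female C57Bl/6 mice aged 3 to 4 months, in 6 groups with 3 arrays each. Exercised mice had voluntary access to running wheels for 7 days (7EX) or 21 days (21EX). Pregnant mice were studied on day 11 of gestation (MP, mid-pregnancy), on days 18 to 19 (LP, late pregnancy), and within 12 h of giving birth (0PP, immediately postpartum). The controls shared by all of these groups (NP/Sed) were sedentary virgin females in diestrus. RNA from 2 to 3 hearts was combined in equal parts for each array. The replicate is therefore the pool, and the p-values measure the spread between pools. Values are log2 values from robust multi-array averaging (RMA), so a difference of 1 is a doubling. Differences are given ± standard error from limma, whose two-sided p-values carry a Benjamini-Hochberg adjustment across the whole array. A gene passed where at least 1 of its probe sets had an adjusted p under 0.05.

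In the adult heart, fatty acids supply most of the energy, and glucose and lactate supply a share that shifts with insulin, workload and hormonal state. Glucose enters through GLUT1, the product of Slc2a1, which sits largely at the cell surface, and through GLUT4, the product of Slc2a4, which insulin and contraction bring there from internal vesicles. Hexokinase traps it as glucose 6-phosphate, which either feeds glycolysis, where phosphofructokinase is the main point of control, or is built into glycogen. These are controlled largely through enzyme location, phosphorylation and metabolites, which messenger RNA levels do not show.

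Stbd1 was the member that passed. Its messenger RNA was higher in all 3 pregnancy groups than in NP/Sed, by between 1.66-fold and 1.97-fold, and it was higher in pregnancy than in exercise. Of the other 8 genes measured, none passed in any of the 9 comparisons. The nearest were Hk2, higher in 0PP than in LP (adjusted p = 0.0862), and Slc2a4, lower in MP than in NP/Sed at 1 of its 2 probe sets (adjusted p = 0.0611).

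RefSeq promoters, 250 bases before and 50 after a gene's start in GRCm38.p6, were at hand for 9 of the 10 members, all but Slc2a4. Those of Stbd1, the gene that passed, and of Hk2 and Slc2a1, whose 0PP arrays all lay above their LP arrays (at 2 of 3 probe sets for Slc2a1), are shown 5′ to 3′ in the direction of the gene. Capitals mark matches on either strand to 6 motifs. These are the TATA box TATAAA, the CCAAT box CCAAT, the GC box GGGCGG, the E-box CACGTG, the hypoxia response core ACGTG (also found inside CACGTG), and TGTTCT, a core of the element for glucocorticoid and progesterone receptors.
Stbd1, chr5:92602801-92603100, plus strand: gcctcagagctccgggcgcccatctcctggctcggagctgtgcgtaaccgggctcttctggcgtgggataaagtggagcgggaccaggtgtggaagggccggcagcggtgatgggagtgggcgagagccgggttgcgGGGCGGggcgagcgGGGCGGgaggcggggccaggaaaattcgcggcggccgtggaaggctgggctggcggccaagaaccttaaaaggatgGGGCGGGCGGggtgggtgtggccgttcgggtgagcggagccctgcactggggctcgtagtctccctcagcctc
Hk2, chr6:82774405-82774704, minus strand: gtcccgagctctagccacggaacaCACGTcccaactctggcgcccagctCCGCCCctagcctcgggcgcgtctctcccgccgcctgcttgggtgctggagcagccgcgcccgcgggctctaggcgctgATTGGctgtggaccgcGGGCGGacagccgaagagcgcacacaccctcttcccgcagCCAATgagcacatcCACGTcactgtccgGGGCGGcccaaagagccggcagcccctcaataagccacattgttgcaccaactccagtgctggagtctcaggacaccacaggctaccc
Slc2a1, chr4:119108495-119108794, plus strand: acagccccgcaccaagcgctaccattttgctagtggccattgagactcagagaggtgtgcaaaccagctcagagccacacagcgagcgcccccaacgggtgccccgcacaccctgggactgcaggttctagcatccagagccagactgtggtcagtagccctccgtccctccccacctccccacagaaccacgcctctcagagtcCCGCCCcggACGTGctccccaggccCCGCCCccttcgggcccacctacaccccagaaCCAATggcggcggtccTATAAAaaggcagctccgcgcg
The Stbd1 window held 4 GC boxes, the last 2 overlapping, and no match to the other motifs. The Hk2 window held 3 GC boxes, 2 CCAAT boxes and 2 ACGTG cores, and that of Slc2a1 held 2 GC boxes and 1 each of the TATA box, the CCAAT box and ACGTG. Of 32851 promoters of the same length, 35.7% held GGGCGG, 37.4% CCAAT, 19.6% ACGTG, 13.6% TATAAA, 19% TGTTCT and 7.15% CACGTG. G and C made up 70.7% of the Stbd1 window, 67.3% of that of Hk2 and 65.3% of that of Slc2a1, beside a median of 52.7% over all promoters. These matches describe the letters only, and binding was not measured.

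Over all 45037 probe sets, arrays correlated with each other at 0.991 to 0.997, no pair held identical values, and array medians lay between 4.94 and 5.03. Averaged over the brightest probe sets of 8 cardiomyocyte markers, the level lay between 13.96 and 14.04 on every array, close to the highest value on any array, 14.86. At dimmer probe sets of the same genes, Tnnt2 was lower than in NP/Sed in 7EX (-0.74), 21EX (-0.86) and 0PP (-0.80), and Myh6 in MP (-0.93), with adjusted p from 0.0156 to 0.0452. At the 17 member probe sets, NP/Sed replicate 1 was the highest of the 18 arrays at 6 and 0PP replicate 2 at another 6, while LP replicate 3 was the lowest at 4. The 5 comparisons with NP/Sed share those 3 control arrays, so the same control values enter each of them.

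Stbd1 encodes a protein with a starch-binding domain that attaches glycogen to membranes and binds the autophagy protein GABARAPL1. Its gene lies at chromosome 5, 92603051 to 92606579 in GRCm38.p6, and was read by 1 probe set, 1434442_at. The values were 6.46, 6.77 and 6.92 in 7EX, and 6.66, 6.84 and 6.45 in 21EX. They were 7.03, 7.22 and 7.12 in MP, 7.10, 6.94 and 7.18 in LP, and 7.54, 7.41 and 7.01 in 0PP, against 6.43, 6.53 and 6.07 in NP/Sed. Each of the 9 pregnancy arrays lay above each of the 6 exercise and 3 NP/Sed arrays, although the lowest LP array, at 6.94, was close to the highest 7EX array, at 6.92. The exercise arrays overlapped those of NP/Sed.

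Stbd1 was higher than in NP/Sed by 0.78 ± 0.15 in MP (adjusted p = 0.0154, 1.72-fold), by 0.73 ± 0.15 in LP (adjusted p = 0.0135, 1.66-fold) and by 0.98 ± 0.15 in 0PP (adjusted p = 0.00440, 1.97-fold). Thus 1 of the 9 member genes rose in each of these comparisons, where 1.17% of all genes were called higher in MP, 2.2% in LP and 3.07% in 0PP. The differences in 7EX, 0.38 ± 0.15 (adjusted p = 0.258), and in 21EX, 0.31 ± 0.15 (adjusted p = 0.262), did not pass. In the direct comparison, the mean of the pregnancy groups exceeded that of the exercise groups by 0.49 ± 0.09 (95% confidence interval 0.29 to 0.69, adjusted p = 0.00612), where 2.24% of all genes were called higher. By mean, the order was 0PP (7.32), MP (7.12), LP (7.07), 7EX (6.72), 21EX (6.65) and NP/Sed (6.34). Within pregnancy, LP minus MP was -0.05 (interval -0.36 to 0.26), and 0PP minus LP was 0.24 (interval -0.06 to 0.55, adjusted p = 0.630), so these stages did not differ beyond their spread, nor did 21EX and 7EX (-0.07, interval -0.38 to 0.24).

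**Figure D1:**
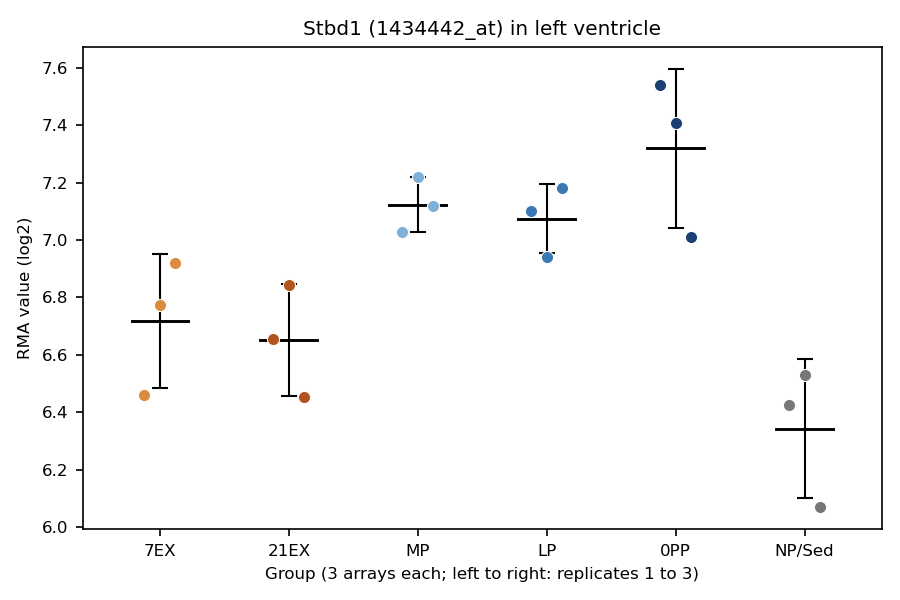
RMA values (log2) of Stbd1 on each of the 18 arrays, by group, with the group mean (horizontal line) and SD (bar), n = 3 arrays per group. The 9 MP, LP and 0PP arrays lie between 6.94 and 7.54, above the 7EX and 21EX arrays (6.45 to 6.92) and the NP/Sed arrays (6.07 to 6.53).

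The rise of Stbd1 in 0PP and its excess in pregnancy over exercise passed whichever array was left out, with differences of 0.84 to 1.13 and of 0.42 to 0.54. The rise in MP missed the threshold without NP/Sed replicate 3 (0.64, adjusted p = 0.0629), MP replicate 2 (0.73, adjusted p = 0.0646) or MP replicate 3 (0.78, adjusted p = 0.0787). That in LP missed it without NP/Sed replicate 3 (0.60, adjusted p = 0.0906), LP replicate 1 (0.72, adjusted p = 0.0573) or LP replicate 3 (0.68, adjusted p = 0.0660). The 3' minus 5' signal of beta-actin, a sign of RNA length, had group means of 1.08 in 7EX, 1.19 in 21EX, 1.33 in MP, 1.24 in LP and 1.30 in 0PP, against 1.21 in NP/Sed. With that signal as a covariate, the rise in MP (0.69, adjusted p = 0.178) and the excess of pregnancy over exercise (0.36, adjusted p = 0.557) missed the threshold, whereas those in LP and 0PP passed. The signal spanned 1.05 to 1.22 on the exercise arrays and 1.28 to 1.35 on those of MP and 0PP. It spanned 1.17 to 1.28 in LP and 1.11 to 1.36 in NP/Sed. The signal and the group thus cannot be fully told apart in this model.

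In whole ventricle, more cells of a type and more RNA per cell cannot be told apart. The mean level of 6 macrophage markers lay between 8.50 and 8.65 in 7EX, 8.54 and 8.74 in 21EX, 8.67 and 8.83 in MP, 8.49 and 8.78 in LP, and 8.57 and 8.69 in 0PP, against 8.17 to 8.35 in NP/Sed. Of these 6 markers, 2 passed as higher in 7EX, 2 in 21EX, 5 in MP, 1 in LP and 2 in 0PP, and none of the 6 was at 0. Cd163 was also higher in pregnancy than in exercise (0.62, adjusted p = 6.68e-05). It was the only 1 of the 6 that passed there, and the median difference over the macrophage probe sets was -0.04. Of 4 adipocyte markers measured, Adipoq, which encodes adiponectin, was higher in MP by 2.46 ± 0.43 (adjusted p = 0.0102) and in pregnancy than in exercise by 1.24 ± 0.28 (adjusted p = 0.0174). Its differences from NP/Sed in LP and 0PP were 1.27 (adjusted p = 0.169) and 1.60 (adjusted p = 0.0587). The mean level of the 4 lay between 4.51 and 4.72 in 7EX, 4.40 and 4.46 in 21EX, 4.77 and 5.48 in MP, 4.50 and 4.79 in LP, and 4.50 and 4.78 in 0PP, against 4.14 to 4.51 in NP/Sed. Adipoq was the only one of these 4 that passed in any comparison. At their brightest probe sets, Lep, Retn and Cidec differed from NP/Sed by -0.03, 0.34 and 0.22 in MP. Their differences in LP were -0.04, -0.04 and 0.19, and those in 0PP were -0.10, -0.23 and 0.05. Lep and Cidec averaged 3.77 and 3.42, below the median probe set of any array. Of 3 erythroid markers, 2 were higher in MP, 1 in 0PP and 1 (Alas2) in pregnancy than in exercise. Of 7 fibroblast markers, 2 were higher in MP and 2 in 0PP, and in LP 1 was higher and 1 lower. In pregnancy against exercise the fibroblast markers Tcf21 and Lum and the endothelial marker Cdh5 were lower. The fibroblast marker Dcn was called higher there, and in MP and LP, at a dimmer probe set only (mean 5.82). At its brightest probe set (mean 12.79), Dcn differed by -0.04 in pregnancy against exercise (adjusted p = 0.813). Against NP/Sed, that probe set differed by -0.01 in MP (adjusted p = 0.973) and by 0.17 in LP (adjusted p = 0.349). The part of all these markers in the Stbd1 result was not tested. Among 19445 probe sets, the 3 whose values followed Stbd1 most closely over the 18 arrays were those of Lyve1 (Pearson r = 0.921), a hyaluronan receptor of lymphatic vessels and some tissue macrophages, Man2a1 (r = 0.893), a Golgi mannosidase, and Sdcbp (r = 0.884), which encodes syntenin. These correlations are a description. All points share the group means and the 3 NP/Sed arrays. Lyve1 averaged 8.95 in MP, 8.90 in LP and 9.00 in 0PP, with 8.23 in 7EX and 8.34 in 21EX, against 7.98 in NP/Sed.

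**Figure D2:**
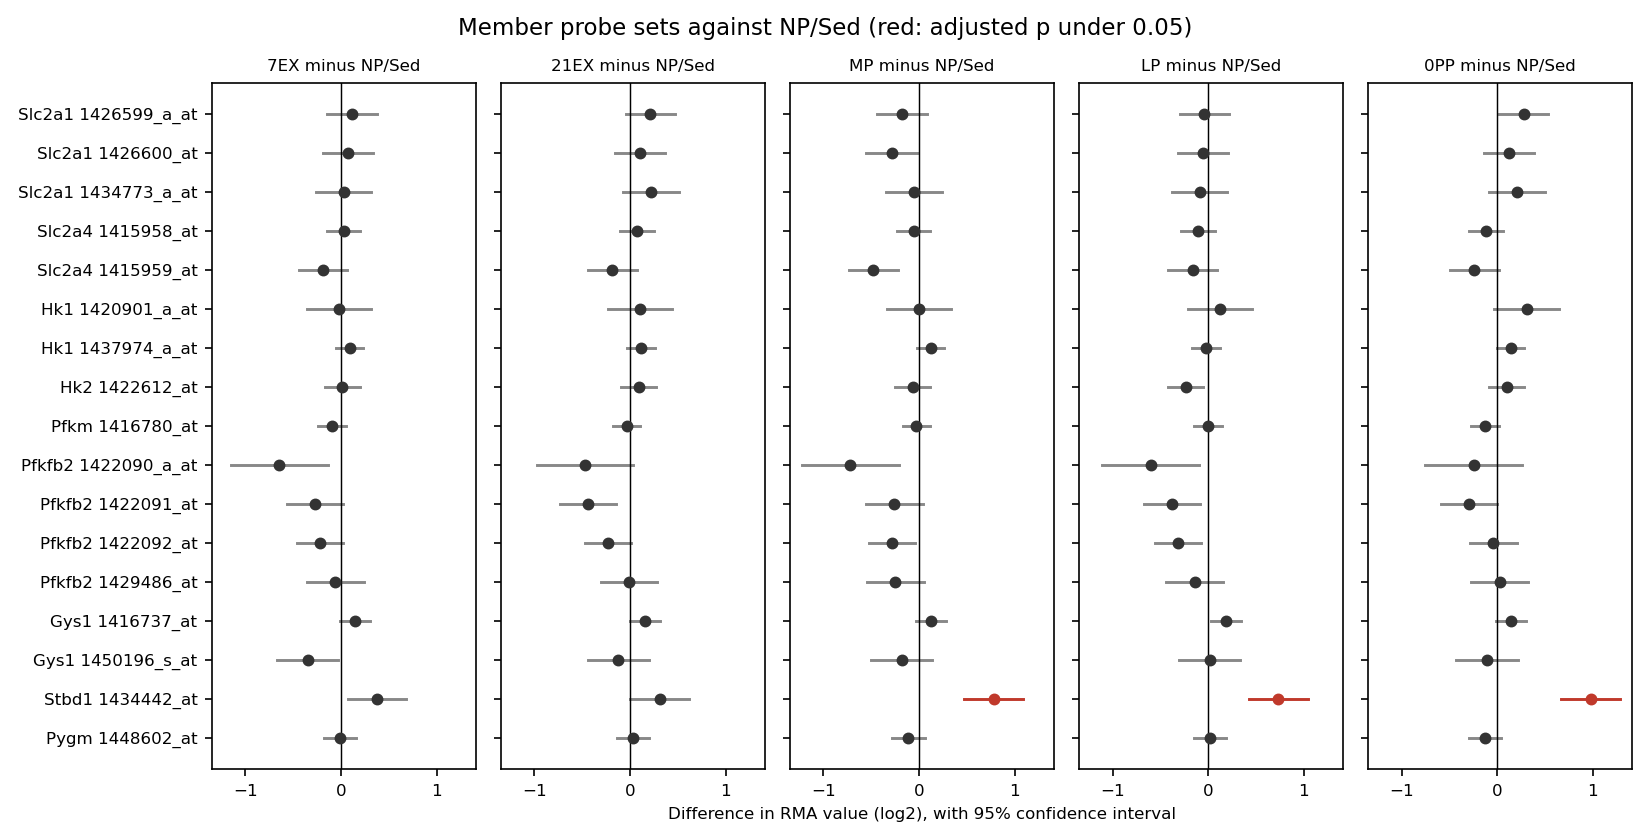
Difference in RMA value (log2) from NP/Sed, with its 95% confidence interval, for each of the 17 member probe sets in 7EX, 21EX, MP, LP and 0PP, n = 3 arrays per group. Only Stbd1 in MP, LP and 0PP, drawn in red, had an adjusted p under 0.05, at 0.78, 0.73 and 0.98.

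Slc2a1, which encodes the constitutive transporter GLUT1, did not pass in any comparison. At 2 of its 3 probe sets the highest array was 0PP replicate 2. At 1426599_a_at it read 7.36, 7.16 and 7.41 in 7EX, 7.48, 7.27 and 7.47 in 21EX, 6.76, 7.26 and 7.02 in MP, 7.21, 7.06 and 7.19 in LP, and 7.29, 7.72 and 7.40 in 0PP, against 7.12, 7.35 and 7.11 in NP/Sed. Every 0PP array lay above every LP array there, by a mean of 0.32 ± 0.12 (adjusted p = 0.363), and likewise at 1434773_a_at, by 0.29 ± 0.14 (adjusted p = 0.491). At 1426600_at, where those groups overlapped, the difference was 0.18 ± 0.13. That probe set was lower in MP by 0.29 ± 0.13 (adjusted p = 0.294), with overlapping arrays. The 3 probe sets correlated with each other at 0.46 to 0.86 over the 18 arrays.

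Slc2a4, which encodes the insulin-responsive transporter GLUT4, was read by 2 probe sets that behaved unlike each other. At 1415959_at the values were 9.45, 9.51 and 9.56 in 7EX, 9.55, 9.53 and 9.46 in 21EX, 9.25, 9.26 and 9.16 in MP, 9.52, 9.48 and 9.61 in LP, and 9.49, 9.51 and 9.38 in 0PP, against 10.12, 9.55 and 9.42 in NP/Sed. The MP arrays were the 3 lowest of the 18, and NP/Sed replicate 1 stood well above the other 17. The difference in MP was -0.48 ± 0.12 (adjusted p = 0.0611), and -0.26 without NP/Sed replicate 1. LP exceeded MP by 0.32 ± 0.12 with no overlap (adjusted p = 0.237). That comparison holds no NP/Sed array, although the control arrays enter its estimate of spread, and without NP/Sed replicate 1 its adjusted p was 0.0247.

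At the other Slc2a4 probe set, 1415958_at, MP differed from NP/Sed by -0.06 ± 0.08, and LP from MP by -0.05 ± 0.08. There the 6 exercise arrays (11.41 to 11.48) lay above the 9 pregnancy arrays (11.16 to 11.40), and the NP/Sed arrays, at 11.55, 11.39 and 11.22, spanned both. Pregnancy minus exercise was -0.14 ± 0.05 (adjusted p = 0.202), and 0.817% of all probe sets had no overlap in either direction in that comparison. The 2 probe sets correlated at 0.44 over the 18 arrays.

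Hk2 encodes the insulin-regulated hexokinase of muscle, and Hk1 the form found in most tissues. Hk2 (1422612_at) read 11.03, 11.01 and 11.04 in 7EX, 11.10, 11.13 and 11.08 in 21EX, 10.90, 10.99 and 10.97 in MP, 10.85, 10.89 and 10.60 in LP, and 11.11, 11.21 and 11.02 in 0PP, against 11.15, 11.05 and 10.85 in NP/Sed. Within the pregnancy series each LP array lay below each MP and each 0PP array, and LP replicate 3 was the lowest of all. The 0PP mean exceeded that of LP by 0.34 ± 0.09 (interval 0.15 to 0.52, adjusted p = 0.0862), and by 0.25 to 0.39 with an array left out. This difference passed under 4 of 11 other settings, with an adjusted p of 0.0257 to 0.307 over all 11. LP was lower than MP by 0.17 ± 0.09 (adjusted p = 0.403), and differed from NP/Sed by -0.24 ± 0.09 (adjusted p = 0.218), where the arrays overlapped.

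Hk1 was read by 2 probe sets, and another probe set that it shares with pseudogenes of another gene was left out. At 1437974_a_at the exercise arrays lay between 9.82 and 9.94, those of MP between 9.88 and 9.91, of LP between 9.72 and 9.80, and of 0PP between 9.79 and 10.01, against 9.76 to 9.79 in NP/Sed. All 7EX, 21EX, MP and 0PP arrays thus lay above those of NP/Sed, by means of 0.09, 0.12, 0.12 and 0.14, yet the smallest adjusted p of the 4 was 0.286. LP was lower than MP by 0.15 ± 0.07 (adjusted p = 0.359), with no overlap, and 0PP exceeded LP by 0.16 ± 0.07 (adjusted p = 0.399). The other probe set, 1420901_a_at, overlapped between groups in each of these comparisons.

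**Figure D3:**
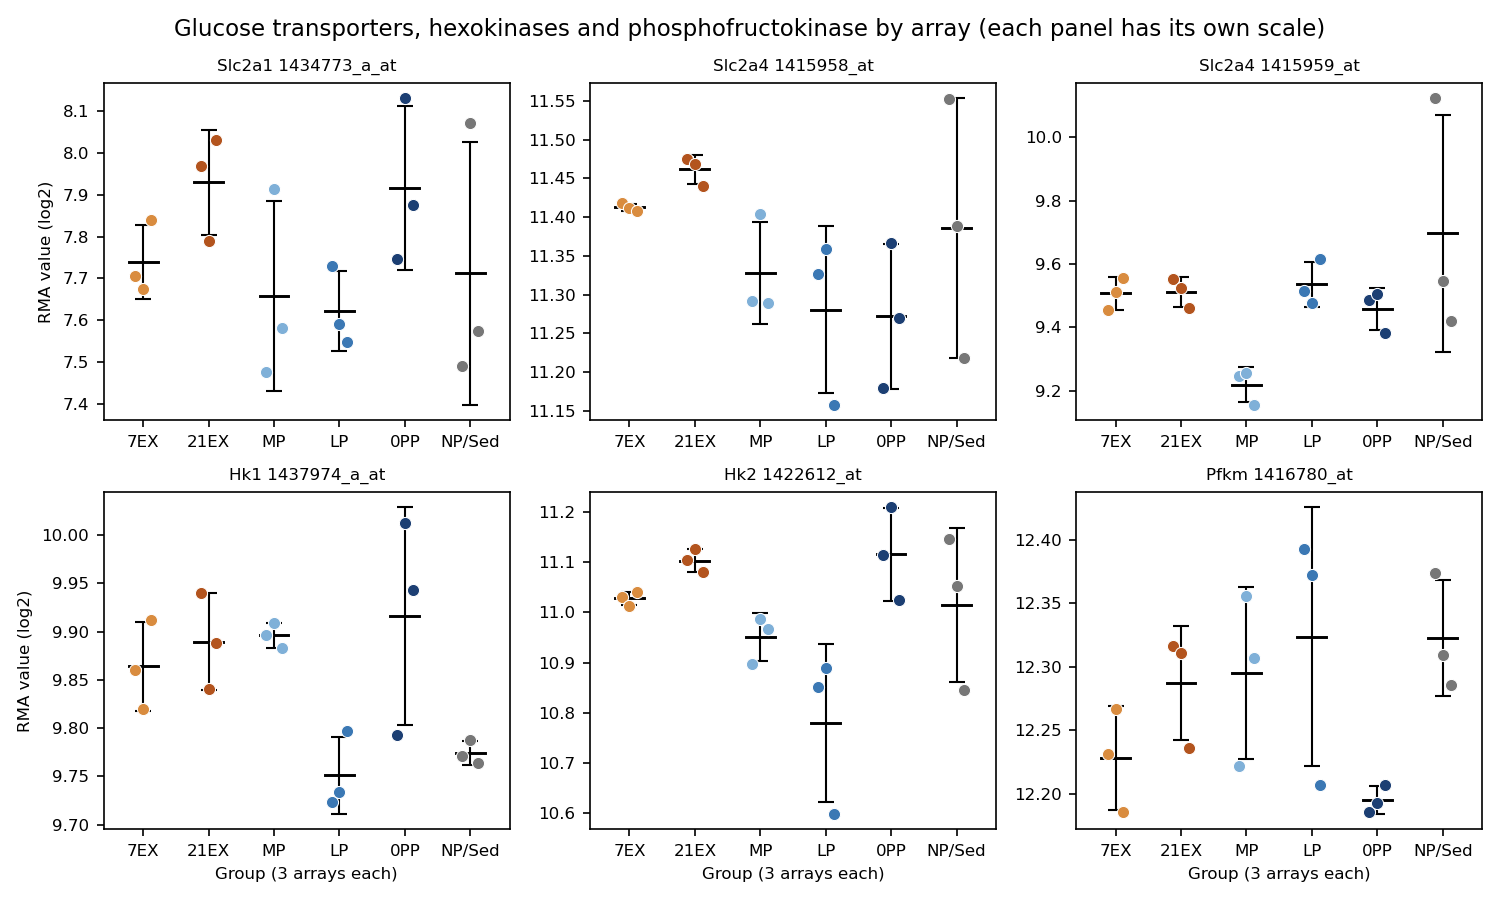
RMA values (log2) on each of the 18 arrays for Slc2a1, Slc2a4 (2 probe sets), Hk1, Hk2 and Pfkm, with the group mean (line) and SD (bar), n = 3 arrays per group, each panel on its own scale. Slc2a4 1415959_at was lowest in MP (9.16 to 9.26) and Hk2 in LP (10.60 to 10.89), and 1 NP/Sed array of Slc2a4 stands at 10.12.

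Pfkm, the muscle subunit of phosphofructokinase, varied little. Its 18 values lay between 12.19 and 12.39. The 3 arrays of 0PP, at 12.19, 12.19 and 12.21, lay below those of NP/Sed, at 12.37, 12.31 and 12.29, by a mean of 0.13 ± 0.07 (adjusted p = 0.349). No comparison of Pfkm reached an unadjusted p under 0.05.

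Pfkfb2 encodes the heart form of the bifunctional enzyme that makes and removes an activator of phosphofructokinase. It was read by 4 probe sets, of which 1422090_a_at and 1422092_at averaged 3.88 and 3.68, below the median probe set of any array. At 1422091_at the values were 5.62, 5.64 and 5.59 in 7EX, 5.54, 5.33 and 5.47 in 21EX, 5.89, 5.39 and 5.61 in MP, 5.62, 5.51 and 5.40 in LP, and 5.73, 5.55 and 5.50 in 0PP, against 6.29, 5.61 and 5.77 in NP/Sed. The 21EX arrays lay below all 3 controls, by a mean of 0.44 ± 0.14 (adjusted p = 0.0889), and by 0.24 without NP/Sed replicate 1. The same control array stood highest at 1422090_a_at, at 5.12 beside 4.21 and 3.64 in the other NP/Sed arrays. The differences there were -0.64 ± 0.24 in 7EX, -0.72 ± 0.24 in MP and -0.60 ± 0.24 in LP (adjusted p = 0.155 to 0.260). Without NP/Sed replicate 1 they were -0.25, -0.32 and -0.20. Without NP/Sed replicate 3 they were -0.99, -1.06 and -0.94, with adjusted p of 0.0498, 0.0366 and 0.0470, so their size turned on which control array was kept. At 1422092_at the NP/Sed arrays lay closer together, at 3.80 to 3.91. The arrays of 21EX, MP and LP all lay below them, by means of 0.23, 0.29 and 0.31. Differences in 7EX and 0PP were -0.22 and -0.04, with overlap, and the smallest adjusted p of the 5 was 0.211. The fourth probe set, 1429486_at, showed differences from NP/Sed of -0.06 in 7EX, -0.01 in 21EX, -0.25 in MP, -0.14 in LP and 0.03 in 0PP, the smallest adjusted p being 0.462.

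The enzymes that build and break glycogen gave small differences. Gys1, the muscle form of glycogen synthase, read 8.89, 9.02 and 8.90 in 7EX, 8.89, 8.99 and 8.95 in 21EX, 8.90, 8.85 and 9.00 in MP, 8.98, 8.95 and 8.99 in LP, and 8.79, 9.00 and 9.01 in 0PP, against 8.84, 8.73 and 8.81 in NP/Sed, at 1416737_at. The arrays of 7EX, 21EX, MP and LP all lay above those of NP/Sed, with means 0.12 to 0.19 higher and adjusted p from 0.271 to 0.508. At the second Gys1 probe set, 1450196_s_at, 7EX was lower than NP/Sed by 0.35 ± 0.15 (adjusted p = 0.323), with no overlap, and the differences in 21EX, MP, LP and 0PP were -0.12, -0.18, 0.02 and -0.11, with overlapping arrays. The 2 probe sets thus differed in sign in 7EX, 21EX, MP and 0PP. They correlated at 0.20 over the 18 arrays. Pygm, which releases glucose phosphate from glycogen in muscle, lay between 11.14 and 11.50 on all arrays. Its differences from NP/Sed ran from -0.13 ± 0.08 in 0PP to 0.03 ± 0.08 in 21EX, and none had an unadjusted p under 0.05.

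Counted together, 0 of the 9 genes passed in 7EX, where 1.26% of all genes were called in either direction, and 0 in 21EX, where 5.16% were. With limma, 3 of the 17 probe sets had an unadjusted p under 0.05 in 7EX, where 13.3% of all probe sets did, and 2 in 21EX, where 19% did. A Cyber-T type test called 0 member genes in both, beside 4.92% of all genes in 7EX and 7.83% in 21EX. Between stages, 0 genes passed in LP against MP (2.57% of all genes called), in 0PP against LP (1.64%) and in 21EX against 7EX (0.0055%). The member probe sets with an unadjusted p under 0.05 there were 2 in LP against MP (13.7% of all probe sets), 5 in 0PP against LP (10%) and 0 in 21EX against 7EX (6.39%). The Cyber-T type test called 1, 0 and 0 member genes in these comparisons, beside 4.79%, 2.38% and 0.0495% of all genes. In 0PP against LP all 5 probe sets were higher in 0PP, and the median over the 17 was 0.17, beside -0.01 over all probe sets. Against NP/Sed the median over the 17 was -0.01 in 7EX, 0.08 in 21EX, -0.11 in MP, -0.05 in LP and 0.03 in 0PP. The medians over all probe sets lay between -0.02 and 0.01 in these 5 comparisons. Groups did not overlap at 4 of the 17 member probe sets in 7EX, 4 in 21EX, 5 in MP, 3 in LP and 3 in 0PP, each against NP/Sed. The same held for 17.6%, 22.5%, 17.4%, 16.4% and 21.1% of all probe sets. Between stages they did not overlap at 5 of the 17 in LP against MP (19.7% of all probe sets), 5 in 0PP against LP (15.6%) and 3 in 21EX against 7EX (13.4%).

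Other genes of the pathway were taken from lists of glucose transport, early and late glycolysis, lactate and pyruvate handling, glycogen synthesis and breakdown, and control by insulin and AMP-activated kinase, with 100 of 110 genes measured. Against NP/Sed, 2 rose and 5 fell in 21EX, 1 rose and 1 fell in MP, 5 rose and 0 fell in LP, and 4 rose and 1 fell in 0PP. Of all genes measured, 5.16% were called in either direction in 21EX, 2.11% in MP, 2.97% in LP, 3.86% in 0PP and 5.05% in pregnancy against exercise. In 7EX none passed with limma, 32 of the 100 had an unadjusted p under 0.05 at any of their probe sets, as did 22.1% of all genes, and the Cyber-T type test called 10, beside 4.92% of all genes. In LP against MP 6 were higher and 2 lower, in 0PP against LP 3 were higher and 3 lower, and in pregnancy against exercise 6 were higher and 2 lower. In 21EX against 7EX none passed, 13 of the 100 had an unadjusted p under 0.05, as did 11.5% of all genes, and the Cyber-T type test called 0. In a model of only the groups compared, the 8 calls in LP against MP became 2, the 6 in 0PP against LP became 0, the 7 in 21EX became 2 and the 5 in LP became 2. With the 3' minus 5' covariate there were 4 in LP against MP and 4 in 21EX. The counts also moved with single arrays. Without MP replicate 1 there were 8 calls in MP, and without MP replicate 3 there were 2 in LP against MP. Without NP/Sed replicate 1 there were 12 calls in LP and 15 in 0PP. Without NP/Sed replicate 3 there was 1 in each, without 21EX replicate 2 there were 0 in 21EX, and without 0PP replicate 2 there were 0 in 0PP against LP.

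Fbp2, which encodes the muscle fructose bisphosphatase that opposes phosphofructokinase, lay between 8.28 and 8.54 in MP, 9.04 and 9.13 in LP, and 8.33 and 8.81 in 0PP, against 8.22 to 8.49 in NP/Sed. It was higher in LP than in NP/Sed by 0.77 ± 0.11 (adjusted p = 0.00160) and than in MP by 0.69 ± 0.11 (adjusted p = 0.00362), and lower in 0PP than in LP by 0.56 ± 0.11 (adjusted p = 0.0202). Pdk4, the kinase that shuts off pyruvate dehydrogenase, was higher in LP (12.73 to 13.44) than in MP (11.23 to 12.21), by 1.26 ± 0.30 (adjusted p = 0.0431), and was lower in 0PP (10.99 to 12.22) than in LP, with a difference of -1.44 ± 0.30 (adjusted p = 0.0259). In LP it differed from NP/Sed (11.54 to 12.65) by 0.92 ± 0.30, which did not pass (adjusted p = 0.152). Txnip, which restrains glucose uptake, was higher in LP than in NP/Sed by 0.86 ± 0.20 (adjusted p = 0.0366) and lower in 0PP than in LP by 0.93 ± 0.20 (adjusted p = 0.0338). Pfkfb3, the inducible relative of Pfkfb2, was higher in LP than in NP/Sed by 0.74 ± 0.14 (adjusted p = 0.00989), but its LP arrays (5.36 to 5.85) overlapped those of MP (4.96 to 5.47) and 0PP (5.16 to 5.39), and neither step between these stages passed.

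Ppp1r3c, a glycogen-targeting subunit of protein phosphatase 1 that activates glycogen synthase, was lowest in late pregnancy. It was lower in LP (10.11 to 10.37) than in MP (10.55 to 10.64) by 0.37 ± 0.09 (adjusted p = 0.0422), and 0PP (10.58 to 10.76) exceeded LP by 0.41 ± 0.09 (adjusted p = 0.0304). It was also higher in 21EX (10.70 to 10.96) than in NP/Sed (10.40 to 10.58), by 0.35 ± 0.09 (adjusted p = 0.0421). Ugp2, which makes the UDP-glucose that glycogen synthase uses, was higher in 0PP than in LP by 0.42 ± 0.09 (adjusted p = 0.0369). Gabarapl1, whose product Stbd1 binds, was higher in LP than in MP by 0.75 ± 0.14 (adjusted p = 0.00815), a step at which Stbd1 itself differed by -0.05. Some fibroblast markers moved at the same steps as these genes. Col1a1 (-0.91, adjusted p = 0.00192), Col1a2 (-0.71, adjusted p = 9.59e-04) and Dpt (-0.35, adjusted p = 0.0372) were lower in LP than in MP, and of the 7 markers 3 were higher and 1 lower in 0PP than in LP. At their brightest probe sets, Pdgfra, Dcn and Tcf21 were higher in LP than in MP, by 0.12, 0.18 and 0.10. Lum differed by -0.08, and none of these differences passed. The median difference over the fibroblast probe sets was -0.06 at that step. The mean level of all 7 markers lay between 9.90 and 10.08 in MP and between 9.68 and 9.78 in LP. It lay between 9.90 and 10.07 in 0PP, against 9.77 to 9.93 in NP/Sed. The macrophage marker Csf1r was also lower in LP than in MP (-0.32, adjusted p = 0.0478). The part of these markers in the results for Fbp2, Pdk4, Txnip, Ppp1r3c, Ugp2 and Gabarapl1 was not tested.

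Further along, Bpgm, which makes bisphosphoglycerate and is abundant in red cells, was higher in MP than in NP/Sed by 0.93 ± 0.11 (adjusted p = 4.39e-04) and in 0PP by 0.57 ± 0.11 (adjusted p = 0.0145), and lower in LP than in MP by 0.84 ± 0.11 (adjusted p = 7.60e-04). For the 3 erythroid markers measured of 7, the mean level spanned 5.37 to 6.12 in MP, 4.55 to 4.85 in LP and 5.09 to 5.13 in 0PP, against 4.82 to 4.91 in NP/Sed, and its part in the Bpgm result was not tested. Of these markers, Hba-a1 and Slc4a1 averaged 3.55 and 4.12, below the median probe set of any array, and Alas2 averaged 7.46. Pfkp, the platelet-type phosphofructokinase subunit, was higher in 0PP (8.82 to 8.99) than in NP/Sed (8.15 to 8.50), by 0.58 ± 0.10 (adjusted p = 0.0109), and Phka1, a subunit of the kinase that activates glycogen phosphorylase, by 0.53 ± 0.13 (adjusted p = 0.0444). In 21EX the 5 genes that fell against NP/Sed were Hif1a, Mef2a, Rab10, Ppargc1a and Prkaa2, all from the list of insulin and AMP-activated kinase control. Mef2a was also the gene that fell in MP (-0.35, adjusted p = 0.0294) and, at another probe set, in 0PP (-0.50, adjusted p = 0.0239). The Hif1a probe set averaged 4.72, below the median probe set of any array. Its NP/Sed mean of 5.46 lay above those of all other groups, which ran from 4.20 to 4.88. For Ppargc1a, a coactivator of oxidative metabolism, the 21EX arrays lay between 9.73 and 10.06 against 10.48, 10.50 and 11.89 in NP/Sed, so 1 control array stood apart in a fall of 1.03 ± 0.24 (adjusted p = 0.0313).

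**Figure D4:**
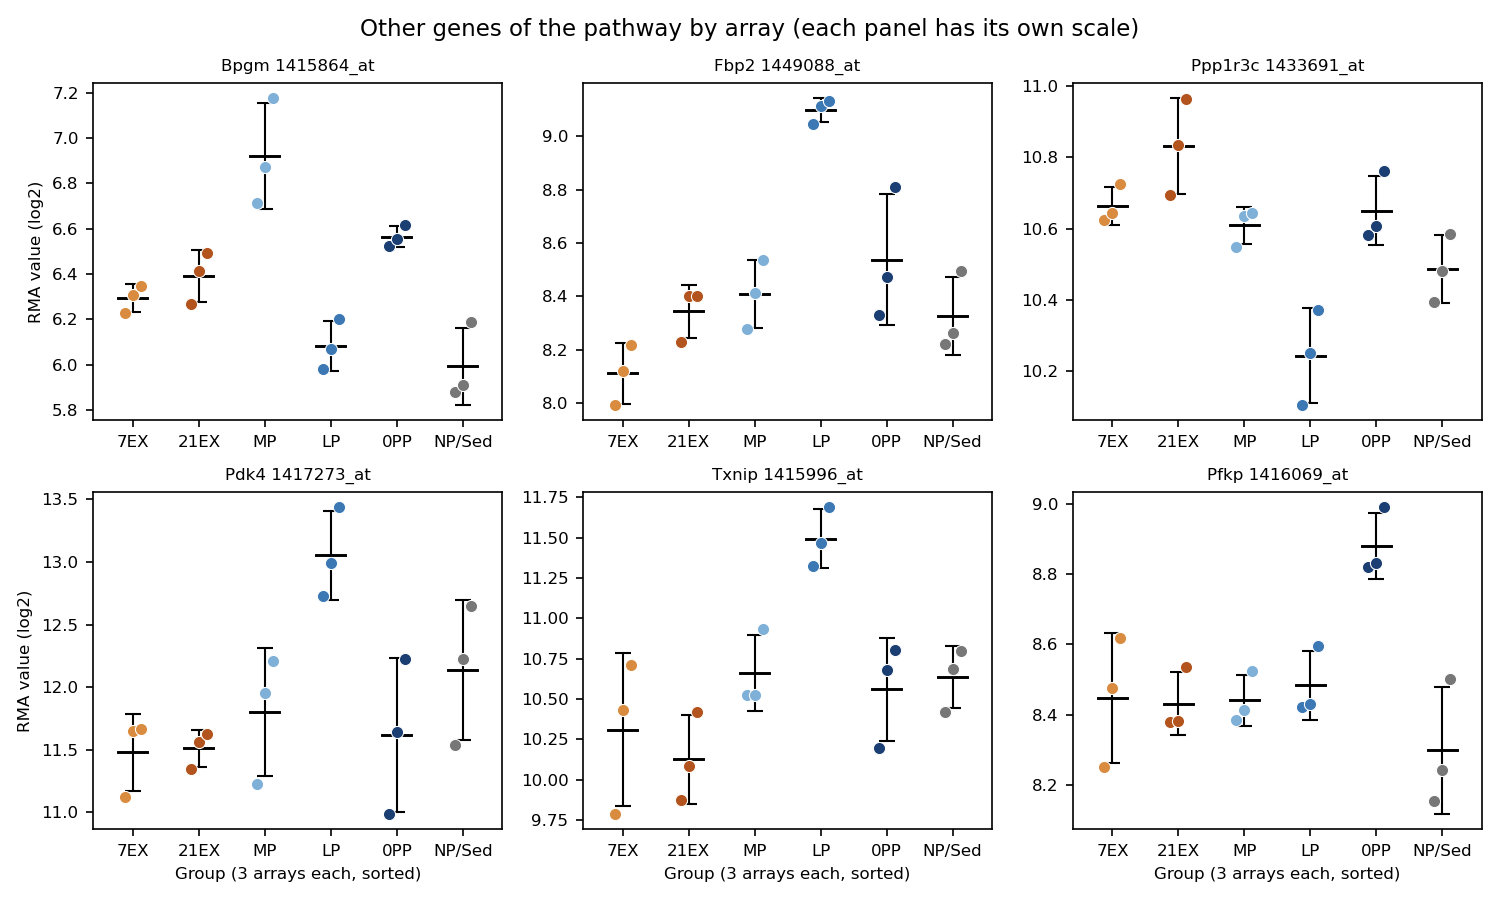
RMA values (log2) on each array, sorted within a group, for Bpgm, Fbp2, Ppp1r3c, Pdk4, Txnip and Pfkp, with the group mean (line) and SD (bar), n = 3 arrays per group, each panel on its own scale. In LP, Fbp2 (9.04 to 9.13) lay above and Ppp1r3c (10.11 to 10.37) below every array of the other groups.

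Between pregnancy and exercise, the other pathway genes that passed with the smallest p were Fbp2 (0.45 ± 0.07), Klf15, a factor that regulates Slc2a4 and amino acid use (0.37 ± 0.06), Pfkfb3 (0.49 ± 0.09), Txnip (0.69 ± 0.13) and the insulin receptor substrate Irs2 (0.58 ± 0.12), all higher in the mean of the pregnancy groups. Prkab1, a regulatory subunit of AMP-activated kinase, was lower (-0.28 ± 0.05). Their adjusted p ran from 0.00109 to 0.00998. With the 3' minus 5' covariate, which cannot be fully told apart from the groups, 0 of the other pathway genes passed in pregnancy against exercise. Stbd1 did not pass there either.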

How the data were processed

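Left ventricular RNA from 18 pools was hybridised to Affymetrix mouse genome arrays. The deposited log2 values were made by the authors with RMA at default options in R 2.12.2, over all arrays together, with no filter. RMA makes arrays alike in distribution, so a shift of most genes in one direction cannot be seen, and the number of arrays limits the precision. Of 45101 probe sets, 64 controls were left out. Of the rest, 34945 are annotated to 1 gene, 932 to several and 9160 to none. A linear model with a mean per group was fitted to all 18 arrays in limma 3.58.1 (R 4.3.3; 12 residual and 6.45 prior degrees of freedom), and p-values were adjusted over 45037 probe sets within each of 9 comparisons. The authors tested with Cyber-T and a 75% change, which were tried as alternatives. The fit was tested on simulated data. All members with all their probe sets are named, and in each comparison up to 6 other pathway genes that passed, by smallest p, are eligible to be named. The 3 probe sets most like a member were sought where its moderated F-test passed, among those with a mean of at least 5. Members and lists were chosen with earlier results of these data known, so counts over them are descriptions. Promoters were read from RefSeq (GRCm38.p6) with Python. Other settings tried were the fold limit, a floor of 5 on the mean, an intensity trend, models of only those groups being compared, median centring, quantile normalization run again, the replicate number as a block, the 3' minus 5' signal in the model, a Cyber-T type test, a gene's mean or highest-mean probe set, and leaving out each array.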

Additional observations from a re-analysis of the deposited data

Results flagged for a closer look

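Stbd1 differed between the settings of pregnancy and exercise, each set against the same NP/Sed arrays. The difference of the effects, tested in limma as pregnancy minus exercise, was 0.49 on the log2 scale (adjusted p = 0.00612), and every one of the 9 pregnancy arrays was above every one of the 6 exercise arrays. Adjusted for the 3' minus 5' signal of beta-actin it was 0.36 (adjusted p = 0.557), and over 11 other settings it ranged from 0.36 to 0.49. That signal differed between the groups, so the adjustment cannot fully separate it from pregnancy and exercise.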

How the results depend on the processing

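The number of member genes that passed was small, and it moved by 1 gene under several settings. For MP against NP/Sed it was 2 with an intensity trend, a mean log2 of at least 5, repeated quantile normalization or the Cyber-T type test, where Slc2a4 (-0.48, adjusted p = 0.0297 to 0.0464; -0.47 with quantile normalization) joined Stbd1, and 0 with the 75% fold limit or the 3' minus 5' covariate. For LP it was 0 with the fold limit. For LP against MP it was 1 with the Cyber-T type test (Slc2a4). For 0PP against LP it was 1 with the trend, the mean of at least 5, and a gene's mean or highest-mean probe set (Hk2). For pregnancy against exercise it was 0 with the fold limit or the covariate, and 2 with the Cyber-T type test (Slc2a4 1415958_at joined Stbd1). With an array left out, the counts ranged from 0 to 1 in 7EX, 0 to 0 in 21EX, 0 to 2 in MP, 0 to 1 in LP, 1 to 1 in 0PP, 0 to 1 in LP against MP, 0 to 0 in 0PP against LP, 0 to 0 in 21EX against 7EX and 1 to 1 in pregnancy against exercise. Without NP/Sed replicate 3 the genes counted were Pfkfb2 and Slc2a4 in MP and Pfkfb2 alone in 7EX and LP, and Stbd1 missed the threshold in MP and LP. Without NP/Sed replicate 1, Slc2a4 passed in LP against MP. The counts of 0 in MP arose without MP replicate 2 or 3, and those in LP without LP replicate 1 or 3. The cause of these moves was not tested.

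Replicate numbers did not pair the samples. Same-numbered arrays of different groups deviated from their group means with a mean correlation of -0.03 over 45 pairs (-0.27 to 0.18, with 7 pairs over 0.1), beside 0.01 over 90 pairs of unlike number. With the replicate number as a block, the count in 21EX was 1 (Pfkfb2 1422091_at, -0.44, adjusted p = 0.0474), and no other member count changed. Single member values were followed over the settings only where the main fit gave an unadjusted p under 0.05. The weaker member values were not followed, so their direction was not checked. Among the values followed, no direction was reversed. Counted once per value and setting, 764 kept their side of the threshold, 16 gained a call and 11 lost one. Of the counts of other pathway genes, 180 stayed within 1.5 times and 81 moved. Beside 0 in 7EX, 7 in 21EX, 2 in MP, 5 in LP, 5 in 0PP, 8 in LP against MP, 6 in 0PP against LP and 8 in pregnancy against exercise, the other settings that keep all arrays gave 0 to 10, 2 to 13, 1 to 10, 1 to 7, 0 to 11, 2 to 12, 0 to 10 and 0 to 18 calls in that order. The lowest came with the fold limit in LP and 0PP, and with only the groups compared in 21EX (2), LP against MP (2) and 0PP against LP (0).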
